A study of Camelina sativa with 159 samples.

Results

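Gene models on unplaced scaffolds of the Camelina sativa genome were described in leaf RNA. A model was taken as a member when its identifier has the form Csa, 5 digits and the letter s (for example Csa00382s100.1), whereas models on chromosomes carry a chromosome number and the letter g. This rule, which uses no measured value, gave 4209 of the 94495 gene models in the count table (4.45%), on 3484 scaffolds. An unplaced scaffold is an assembled piece of sequence that could not be assigned to a chromosome. Such pieces often hold repeats, fragments of genes or near-identical copies, which in a hexaploid such as C. sativa include copies from the other sub-genomes, and they can also hold ordinary genes that the genetic map did not reach. The identifiers could not be matched to gene names (0 of 94495 in the RefSeq gene table), so neither gene functions nor leaf marker genes could be checked, and models are called by their identifiers.

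The data were raw read counts from seedling leaves of 48 accessions, collected in a greenhouse when the fourth leaf was fully expanded. Accessions are natural genotypes with no treatment or transgene, and the labels give a flowering time (FT, in days) for each. The study scored FT in the field at 50% flowering, but its days for CN 113690 and CN 113660 differ from the label values. Whether the label values are that field measure is therefore uncertain. The 44 accessions called early here flowered between 43 and 47.9 days, and the 4 called late are CN 113662 (52 days), CN 113692 (55 days), CN 113691 (59.4 days) and CN 113660 (61.9 days). Each accession had 2 to 5 libraries with at least 200000 counts, 148 in all, and these deeper libraries were used unless stated otherwise; their totals ran from 444464 to 15246389 counts and 4968195 to 30119735 when summed per accession. The other 10 libraries of the 48 accessions held at most 123028 counts. The methods of the study call the libraries of an accession biological replicates but do not say whether they share a plant, pot or extraction, so the p-values measure the spread between these samples.

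Libraries did not all match their labels. Over 339 chromosome models that are on in some accessions and off in others, libraries of the same accession differed at a median of 7.47% of the models and libraries of different accessions at 27.9%. Of 134 libraries with enough reads to compare, 28 were closer to a library of another accession than to any of their own. Of these, 8 were closer to another accession than to their own by over 10 percentage points: Cs040 (CN 113662, a late accession), Cs082 and S001C5C (CAM 219), Cs133 and S001C51 (CAM 260), S001C2D (CN 113672), S001C48 (CN 114262) and S001C56 (CN 101986). They are called mismatched libraries below, and the margin was set after the values were seen. Results that rest on them are given with and without them where both were computed. Cs035, Cs040 and Cs147 of CN 113662 were all nearest to early CN 113672, at 11.6%, 6.38% and 10.7%. Within CN 113662 their lowest values were 12.5%, 19.2% and 12.5%. S001C2D of CN 113672 was nearest to Cs147 (10.7%, against 23.7% within its accession). The libraries of CN 113692, also late, shared too few models to be compared with each other. Library codes also fall into the series Cs, S001C and S0013, whose meaning is not stated, and all 11 late libraries are of series Cs.

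Most scaffold models had no read in these leaves, and detection followed how many models a scaffold carries. In the deeper libraries, 2181 scaffold models (51.8%) had no read at all, against 18.1% of the 90286 chromosome models. A median over accessions of at least 1 count per 1000000 (CPM, a level that is not corrected for gene length) was reached by 545 scaffold models (12.9%) and by 49.2% of chromosome models. The 3323 scaffolds that carry a single model accounted for most of the models without reads: 1960 of their models had no read and 196 (5.90%) reached 1 CPM. On the 161 scaffolds with 2 or more models (886 models), 24.9% had no read and 39.4% reached 1 CPM. On the 25 scaffolds with 10 or more models, which hold 457 models, 20.4% had no read and 44.9% reached 1 CPM, so that detection on the longest gene clusters came near that on chromosomes.

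**Figure D1:**
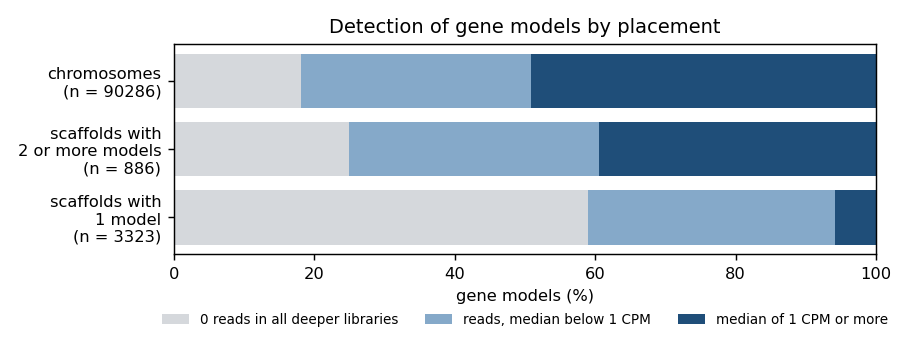
Stacked bars give the percentage of gene models with 0 reads in all deeper libraries, with reads but a median below 1 CPM over 48 accessions, and with a median of at least 1 CPM, for models on chromosomes, on scaffolds with 2 or more models and on scaffolds with 1 model. Models on single-model scaffolds had no read in 1960 of 3323 cases, against 18.1% of models on chromosomes.

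A model was called expressed in an accession at a normalized count above 3 in each of its libraries. The cut is that of the study, which normalized by a variance stabilizing transformation, whereas counts divided by DESeq2 size factors were used here, so the numbers are on another scale than those of the study. On this scale, 734 scaffold models were expressed in at least 1 accession (17.4%), where 54.7% of all models were, and 232 in all 48 (5.51%), where 28.6% of all models were. Of the scaffold models expressed anywhere, 31.6% were expressed in every accession, compared with 52.6% for chromosome models. At the other end, 49 scaffold models (6.68% of those expressed) were expressed in 1 accession only, against 2.88% of chromosome models. Scaffold expression was thus spread over fewer accessions, although its levels are also lower and the rule requires reads in every library. Per accession the number ran from 393 in CN 113754, whose smallest library held 504269 counts, to 542 in CN 113716, whose smallest held 7175439. After every accession was thinned to the same total of 4968195 counts, CN 113754 had 707 models with 3 or more reads and CN 113716 had 700, so these accessions no longer stood apart in that order.

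Scaffold models took 1.07% of all counts, and a pair of models took a large part of it. Csa00532s290.1, on a scaffold of 35 models, had a median of 2221 CPM over accessions, with the lowest level of 1447 CPM in CN 113724 and the highest of 3390 CPM in CN 114270. Csa00590s090.1, on a scaffold of 9 models, had a median of 1482 CPM, from 897 CPM in CN 30478 to 2405 CPM in CN 114270. These 2 models held 36.1% of all scaffold counts, while the top 2 chromosome models held 1.1% of the chromosome counts. Both differed among accessions (edgeR quasi-likelihood test, Benjamini-Hochberg adjusted p = 2.19e-04 and 0.0022), with an SD over accessions of 0.30 on the log2 scale for each, against an SD between libraries of the same accession of 0.27 and 0.32.

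The pair moved together over accessions. The log2 levels of the 2 models had Pearson's r = 0.74 and Spearman's rho = 0.74 over 48 accessions (both permutation p = 1e-05, the lower limit of the 100000 permutations drawn; adjusted p = 2e-05 over the 2 relations computed). Without CN 113724 and CN 114270, the accessions farthest from the median, r was 0.69. Within series, r was 0.71 for Cs (38 accessions), 0.80 for S001C (35 accessions) and 0.51 for S0013 (10 accessions, permutation p = 0.13). Both values are shares of the same library total.

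The remaining 8 models of the 10 with the highest medians were far lower. Csa00518s090.1 had a median of 299 CPM and Csa00495s160.1 of 239 CPM, and Csa00511s180.1, Csa00456s080.1, Csa00590s060.1, Csa00555s170.1, Csa00382s100.1 and Csa00506s140.1 lay between 99.5 and 133 CPM. All 10, which were also the models of highest total count, held 47.6% of the scaffold counts, and 13 models held 50% of them. All 10 are on scaffolds of 9 or more models. Scaffold Csa00532 alone, through Csa00532s290.1, carried 24.5% of the scaffold counts, and Csa00441, which has the most models (49), carried 3.41%.

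The share of counts on scaffold models ranged from 0.912% in CN 113692 to 1.24% in CN 114270, with a median of 1.06% over the 48 accessions. Libraries of an accession resembled each other: the F ratio between accessions was 5.33 (permutation test over 148 libraries, p = 1e-05, the smallest that 100000 permutations give). Within series the ratio was 7.21 for Cs, 3.88 for S001C and 8.30 for S0013. Without the 10 top models, the share lay between 0.529% and 0.597%, and the F ratio was 1.16 (permutation p = 0.27), with an SD between accessions of 0.0176 percentage points against 0.0730 with them.

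**Figure D2:**
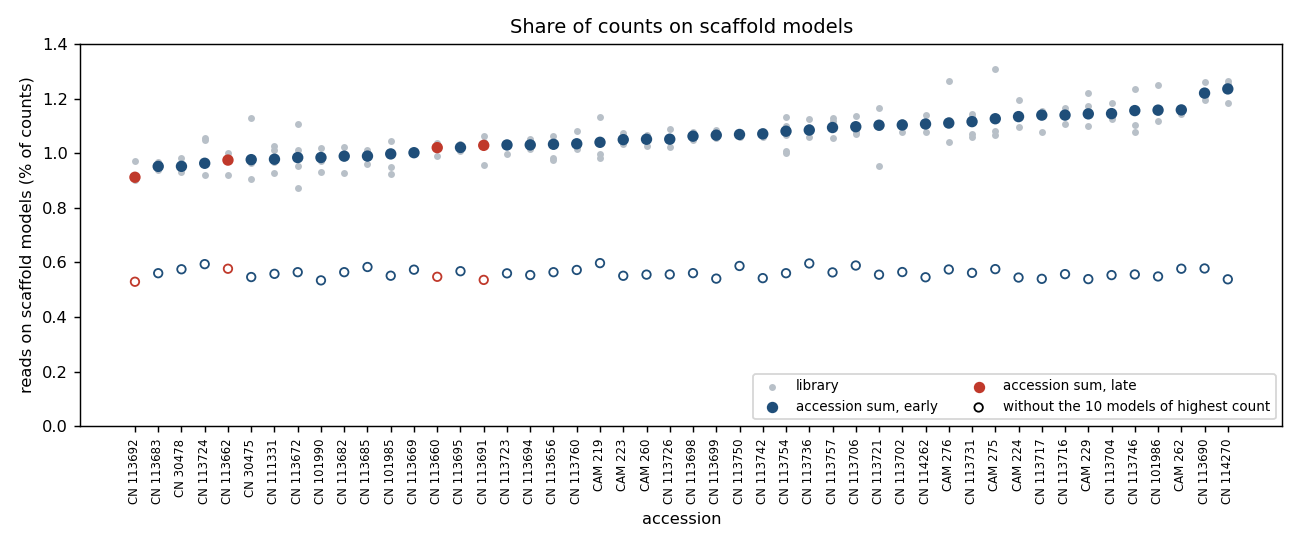
Filled points give the percentage of counts on scaffold models for each of the 48 accessions (late accessions in red), small grey points its libraries, and open points the share without the 10 models of highest count. The filled points run from 0.912% to 1.24%, and the open points stay between 0.529% and 0.597%.

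Code series moved with the share. In 30 early accessions with libraries of both series, the share was 1.11% in Cs and 1.06% in S001C libraries, higher in Cs in 23 of 30 accessions (mean difference 0.0533 ± 0.0784 percentage points, SD; sign-flip permutation test, p = 8.6e-04). Csa00532s290.1 was higher in Cs by 0.27 ± 0.34 and Csa00590s090.1 by 0.38 ± 0.36 on the log2 scale (SD, n = 30), each in 25 of 30 accessions. Without the 10 top models the sign turned, to -0.0282 percentage points (sign-flip permutation test, p = 5e-05, higher in Cs in 7 of 30 accessions).

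Late accessions were compared with early ones to ask whether scaffold expression followed flowering time. The late shares were 0.912% in CN 113692, 0.975% in CN 113662, 1.02% in CN 113660 and 1.03% in CN 113691, and the early shares ran from 0.952% to 1.24% with a median of 1.07%. CN 113692 lay below every early accession, and the other three lay in the lower part of the early range. The means were 0.984% ± 0.0536 (SD, n = 4) and 1.07% ± 0.0706 (SD, n = 44), a difference of -0.0849 percentage points (exact permutation test, two-sided, p = 0.018). The difference was -0.130 percentage points in Cs libraries only (exact permutation p = 0.0011), -0.0608 without CN 113692 (exact permutation p = 0.14) and -0.0147 without the 10 top models (exact permutation p = 0.084).

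Among the 44 early accessions the share fell with FT, with r = -0.36 (permutation p = 0.018) and rho = -0.33 (permutation p = 0.032); the adjusted p of r over the 2 relations was 0.018. Without CAM 275 and CN 113690, r was -0.32. Within series, r was -0.33 for Cs (34 accessions, permutation p = 0.055), -0.10 for S001C (35 accessions, permutation p = 0.56) and -0.47 for S0013 (10 accessions, permutation p = 0.17), so r did not pass the threshold within any series, while rho did within Cs (-0.39, permutation p = 0.024).

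At the level of single models, 785 of the 4209 scaffold models had enough counts to be tested between late and early accessions, on counts summed per accession (edgeR quasi-likelihood test, adjusted over 52305 models). Of these, 31 were higher in late accessions, where 6.01% of all tested models were, and 50 were lower, where 8.27% were. The scaffold shares, 81 of 785 in all (10.3%), stood beside 14.3% over all models. The median log2 fold change was -0.01 for scaffold models and -0.02 for all models. In bulk leaf tissue, fewer cells of a type and less RNA per cell cannot be told apart. With Cs libraries only, 28 of 610 scaffold models were called (11 higher, 17 lower), where 7.03% of all models were, and 24 of them were among the 81. Without CN 113660 there were 40 calls (5.02%, where 7.98% of all models were called) and without CN 113692 there were 45 (5.65%, where 7.34% were), of which 34 and 42 were among the 81.

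Csa03153s010.1, the only model on its scaffold, separated the groups without overlap. It was at 17.5 CPM in CN 113660, 11.9 CPM in CN 113691, 11.7 CPM in CN 113692 and 8.28 CPM in CN 113662, while the early accessions ran from 0 to 2.12 CPM with a median of 0.678 CPM. Each late accession was above every early one, which was the case for 0.122% of all models tested and for 1 of the 785 scaffold models. The log2 fold change was 3.94 (SE 0.27, adjusted p = 2.48e-15) and stayed between 3.62 and 4.10 under the alternatives. The lowest of the 11 late libraries were Cs040 at 1.64 CPM and Cs035 at 2.72 CPM, both of CN 113662 and both within the range of the early libraries, and Cs040 is a mismatched library. The level of CN 113662 rested on Cs147, with 99 of its 114 reads (14.6 CPM), and without Cs147 it was 2.15 CPM, beside 2.12 CPM in the highest early accession. In the early libraries the highest value was 3.24 CPM.

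The other large rises were at lower levels. Csa00799s020.1 was at 1.61 to 5.81 CPM in the late accessions and at 0 to 3.57 CPM in the early ones, with an early median of 0.235 CPM (log2 fold change 2.77, SE 0.64, adjusted p = 0.0027). Csa02597s010.1 was at 1.41 to 2.33 CPM in late accessions against an early median of 0.540 CPM, and 1 early accession, CN 113672 at 2.58 CPM, lay above the lowest late one (log2 fold change 1.53, SE 0.39, adjusted p = 0.0059). Csa00478s010.1 (log2 fold change 1.77, SE 0.47, adjusted p = 0.0077) overlapped widely, with 8 early accessions at or above the lowest late one, and without CN 113691, where it was at 23.6 CPM, its adjusted p was 0.13. Csa03040s010.1 (log2 fold change 2.01, SE 0.54, adjusted p = 0.0097) was at 2.21 CPM in CN 113692 and 1.60 CPM in CN 113660 but at 0.220 CPM in CN 113691, near the early median of 0.204 CPM. Without CN 113660 or CN 113692 its call was lost (adjusted p = 0.15 and 0.10).

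Falls were led by models that were near 0 in several late accessions. Csa00880s010.1 had no read in CN 113660, CN 113691 and CN 113692, and none in early CN 113699. It was at 0.290 CPM in CN 113662, against an early median of 0.668 CPM (log2 fold change -2.95, SE 0.67, adjusted p = 0.0021). This level is low, and absence could not be judged at it. Of the early accessions, 4 were at or below CN 113662. Csa01940s010.1 had no read in CN 113691 and CN 113692 and was at 0.665 CPM in CN 113660 and 0.653 CPM in CN 113662, against an early median of 2.27 CPM (log2 fold change -2.40, adjusted p = 0.016). All 9 of its reads in CN 113662 were in the mismatched Cs040, without which CN 113662 was at 0 CPM. The groups of Csa01940s010.1 overlapped, with 5 early accessions at or below the highest late one. Csa08469s010.1 (log2 fold change -1.96, adjusted p = 0.030) and Csa00690s010.1 (-1.73, adjusted p = 0.019) each overlapped with 12 early accessions and lost the call in Cs libraries only (adjusted p = 0.082 and 0.12) and without CN 113660 (adjusted p = 0.13 and 0.092) or CN 113691 (adjusted p = 0.067 and 0.10). Csa08469s010.1 also lost it without CN 113662 (adjusted p = 0.11) and Csa00690s010.1 without CN 113692 (adjusted p = 0.073). Csa01940s010.1 lost it without CN 113691 (adjusted p = 0.082) or CN 113692 (adjusted p = 0.062).

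A further 3 models, chosen after their values were seen, lay lower in each late accession than in every early one, where 0.482% of all tested models did. Csa00711s020.1 was at 3.42 to 10.7 CPM in the late accessions and 10.9 to 37.1 CPM in the early ones (log2 fold change -1.41, SE 0.26, adjusted p = 1.62e-04). Csa01038s010.1 was at 1.25 to 2.13 CPM against 2.64 to 6.68 CPM (log2 fold change -1.32, SE 0.21, adjusted p = 2.35e-05), and Csa01264s010.1 at 12.9 to 18.7 CPM against 18.9 to 34.8 CPM (log2 fold change -0.50, adjusted p = 0.0015). The separation was narrow for each: the nearest late and early values of Csa01264s010.1 were 18.7 and 18.9 CPM.

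**Figure D3:**
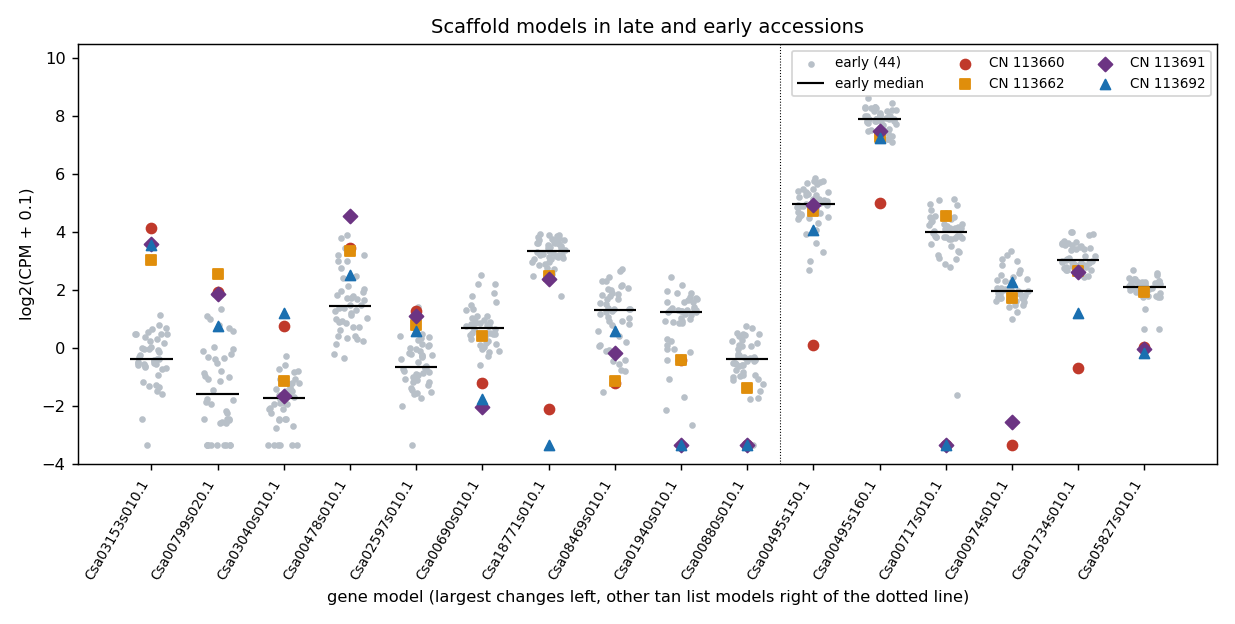
Each point is 1 accession, with log2(CPM + 0.1) on the vertical axis, early accessions in grey with their median as a line, and the 4 late accessions as coloured symbols. Csa03153s010.1 is the only plotted model whose late accessions, at 8.28 to 17.5 CPM, all lie above every early one, and models of the tan list are low in different late accessions.

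The study grouped genes by co-expression in these samples and named 1 group, whose expression followed FT, the tan module. It has 7 members on scaffolds. The list was chosen on these samples, so it is no independent evidence of its direction. All 7 had a negative fold change and 4 were lower in late accessions by the test, with a median log2 fold change of -1.28 over the list, against -0.02 over all models tested. None separated the groups without overlap.

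The tan members were low in different late accessions. Csa00717s010.1 had 0 reads in CN 113660, CN 113691 and CN 113692 but was at 23.4 CPM in CN 113662, above the early median of 16.2 CPM, so the groups overlapped and the fit did not call it (log2 fold change -1.44, adjusted p = 0.11). CN 113662 had reads in all of its libraries, at 15.1, 29.2 and 24.3 CPM in Cs035, Cs040 and Cs147. Low values of Csa00717s010.1 also occurred in early accessions, with 3 reads (0.229 CPM) in CN 113698 and, in CN 30475, 0 reads in S001C1E beside 83 in Cs146 and 56 in S001C28. Csa18771s010.1 had no read in CN 113692 and was at 0.133 CPM in CN 113660, but at 5.52 CPM in CN 113662 and 5.20 CPM in CN 113691, against an early median of 10.3 CPM (log2 fold change -1.78, SE 0.38, adjusted p = 0.0011). Within CN 113662, Csa18771s010.1 had 0 reads in Cs035, 37 in Cs147 and 39 in the mismatched Cs040, without which the accession was at 3.66 CPM. Csa00974s010.1 was at 0 in CN 113660 and 0.0733 CPM in CN 113691, and at 3.27 and 4.83 CPM in CN 113662 and CN 113692, inside the early range (adjusted p = 0.057).

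Csa00495s160.1 had the highest level of the list. It was at 31.9 CPM in CN 113660, 152 CPM in CN 113692, 158 CPM in CN 113662 and 181 CPM in CN 113691, against 139 to 394 CPM in the early accessions (log2 fold change -0.88, SE 0.22, adjusted p = 0.0050). CN 113660 stood below every early accession. Within CN 113662, Cs035 and Cs147 were at 71.2 and 72.6 CPM while the mismatched library Cs040 was at 396 CPM, and without mismatched libraries the log2 fold change was -1.13 (adjusted p = 5.01e-04). Without CN 113660 it was -0.56 (adjusted p = 0.057), and with Cs libraries only -0.76 (adjusted p = 0.076). Its neighbour Csa00495s150.1, on the same scaffold of 18 models, was at 0.998 CPM in CN 113660 but at 16.9 to 31.1 CPM in the other late accessions and was not called (adjusted p = 0.23). Its 26.6 CPM in CN 113662 came mostly from Cs040, with 275 of 366 reads, and was 9.0 CPM without that mismatched library. Csa05827s010.1 was at 0.805 to 0.932 CPM in 3 late accessions and 3.78 CPM in CN 113662 (log2 fold change -1.29, adjusted p = 8.86e-04). The early accessions ran from 1.48 to 6.38 CPM, and 12 of them were at or below CN 113662. Csa01734s010.1 was lowest in CN 113660 at 0.532 CPM (log2 fold change -1.22, adjusted p = 0.0070, and 0.071 without CN 113660).

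Within the early accessions, no scaffold model of 726 tested followed FT (edgeR quasi-likelihood slope test, adjusted over 50816 models), where 0.0216% of all models did. At an unadjusted p under 0.05 there were 55 scaffold models (7.58%), against 12.7% of all models. With no filter on low counts 11 scaffold models of 1989 were called (0.553%), where 0.908% of all models were.

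Levels were also compared among all 48 accessions. Of 672 scaffold models tested on the 148 libraries (edgeR quasi-likelihood test over all accessions), 352 differed (52.4%), where 57.8% of all models did. Scaffolds with 2 or more models gave 222 of 385 (57.7%) and single-model scaffolds 130 of 287 (45.3%). Without mismatched libraries, 351 of 746 were called (47.1%, where 55.1% of all models were), and with the code series as covariate 341 of 672 (50.7%, where 55.8% were), of which 327 were among the 352. At a median level of 5 to 20 CPM, the SD of log2(CPM + 0.1) over accessions had a median of 0.34 for 179 scaffold models and 0.28 for 18233 chromosome models, while at 20 to 100 CPM it was 0.27 and 0.24. The SD between libraries of the same accession was larger than these, and also higher for scaffold models, at 0.437 against 0.394 and 0.284 against 0.277 in the same ranges.

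The models with the largest spread at a mean of at least 5 CPM fell into patterns of a few accessions at or near 0 or of graded levels. Csa03038s010.1 was graded: 28 accessions lay between 1.04 and 2.7 CPM and CN 113672 was highest at 40.1 CPM (F = 41.5, adjusted p = 1.12e-48). The 4 deeper libraries of CN 113672 were at 28.1 to 55.9 CPM, the highest being the mismatched S001C2D. Csa00427s020.1 ran from 2.58 CPM in CN 30478 to 76.1 CPM in CN 113683, where the 3 libraries were at 56.5, 79.0 and 91.6 CPM (adjusted p = 3.16e-25). Csa00430s140.1 ran from 5.58 CPM in CN 113698 to 147 CPM in CN 113690, whose 3 libraries agreed closely at 144 to 148 CPM (adjusted p = 1.25e-14). The other 7 of these 10 models, Csa00717s010.1, Csa00669s030.1, Csa00855s010.1, Csa18771s010.1, Csa00517s010.1, Csa00517s060.1 and Csa00517s080.1, each had accessions at or near 0.

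At the other end of the spread, the 5 models with the smallest SD, Csa00604s060.1, Csa00633s030.1, Csa00430s060.1, Csa00462s040.1 and Csa00535s030.1, had an SD of 0.12 to 0.14 on the log2 scale over accessions, the measure they were chosen by. Csa00604s060.1 had a median of 55.8 CPM, from 47.0 CPM in CN 114270 to 67.7 CPM in CN 113724. Csa00430s060.1, at 66.2 to 106 CPM, lies on the same scaffold as Csa00430s140.1.

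Absence was counted only where depth allowed it. A model was testable when its typical level (the median CPM of the accessions with at least 0.5 CPM) predicted at least 20 reads in each accession sum, and absent in an accession with 0 reads. Of 295 testable scaffold models, 12 were absent in at least 1 accession (4.07%), where 1.15% of all testable models and 1.12% of chromosome models were. With at least 50 expected reads it was 4 of 142 scaffold models (2.82%), where 0.614% of all models were, and without mismatched libraries 11 of 296 (3.72%). Counting levels of at most 2% of the typical level as absent gave 17 of 295 scaffold models (5.76%), where 1.5% of all models were. RNA counts do not show whether a gene is missing from the genome, silent, or too diverged for its reads to align, and these cannot be told apart here.

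Csa03523s010.1 and Csa00427s010.1 were absent in many accessions. Csa03523s010.1, alone on its scaffold, had 0 reads in 10 accessions, CAM 262, CN 113656, CN 113698, CN 113699, CN 113706, CN 113716, CN 113717, CN 113721, CN 113750 and CN 30475, and reached 11.8 CPM in CN 113760. In CN 113717, 109 reads were expected at the typical level of 5.02 CPM, and the floor of 3 reads puts its level at least 36.2-fold lower. Csa00427s010.1 had 0 reads in 9 accessions and its typical level was 4.07 CPM. CN 113698, CN 113699, CN 113706 and CN 113721 lacked reads of both models. These accessions are not all distinct on the chromosome models: S001C42 of CN 113706 and S001C41 of CN 113721 differed at 0% of them, and S001C42 and Cs090 of CN 113721 at 0.637%.

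A further 9 models were absent in 1 to 3 accessions each. Csa00874s010.1, at 12.2 CPM in a typical accession, had 0 reads in each of the 3 libraries of CN 113746 (155 reads expected, at least 51.6-fold lower). Csa00669s030.1 had 0 reads in the 3 libraries of CN 113683 (105 expected, at least 35.2-fold lower), and Csa00855s010.1 in the 3 libraries of CN 113702 and the 3 of CN 113750 (117 and 156 expected). Other accessions were split at these models: Csa00855s010.1 had 25 reads in S001C46 and none in S001C38 and S001C42 of CN 113706, and was likewise on and off in CAM 262 and CN 113721, and Csa00669s030.1 had 24 reads in S00135C and none in S001368 of CN 113695. Csa00717s010.1, the tan member above, was absent in 3 late accessions, where 255 reads were expected in CN 113660, 232 in CN 113691 and 84.4 in CN 113692. Csa02393s010.1 was absent in CN 113692 and CN 113724, and Csa18771s010.1 in CN 113692.

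Csa00535s150.1 had 0 reads in 21 accessions, but its typical level rests on a single accession. It was at 7.39 CPM in CAM 219, where library Cs082 held 108 reads, Cs128 none and S001C5C 1 read. Cs082 is a mismatched library.

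**Figure D4:**
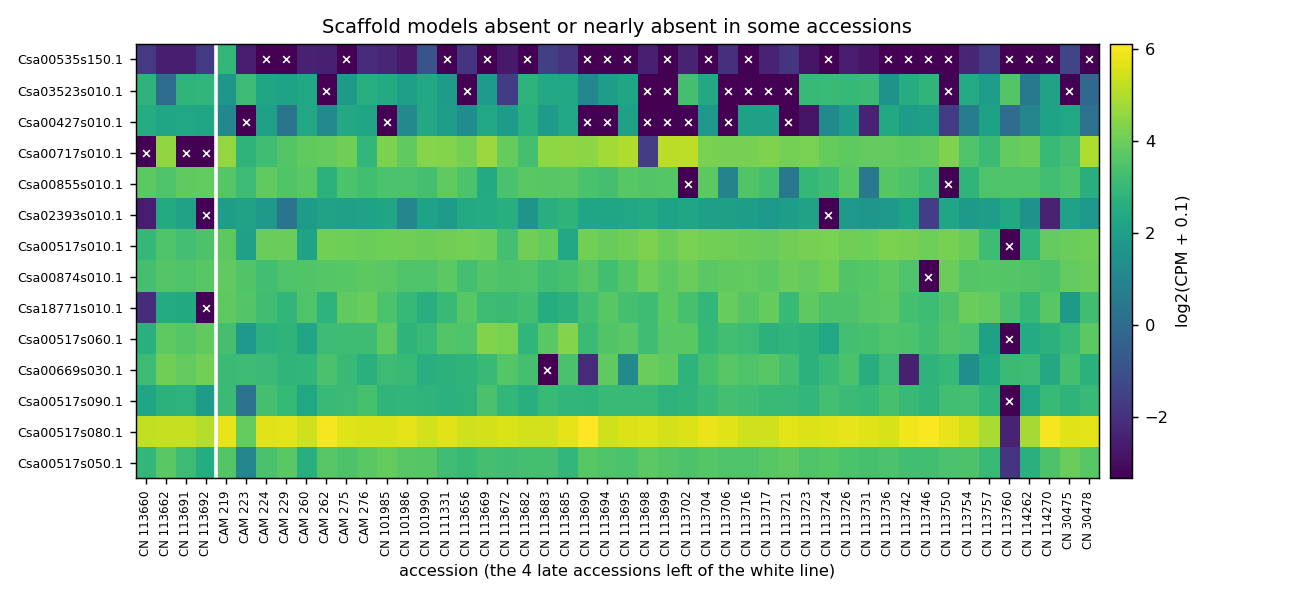
The colour gives log2(CPM + 0.1) of the 12 models absent in at least 1 accession and of 2 further models of scaffold Csa00517 in each of 48 accessions, with a white cross where the accession has 0 reads. Csa00717s010.1 has crosses in 3 of the 4 late accessions, with early CN 113698 near 0 at 0.229 CPM, and the 5 models of Csa00517 are dark in CN 113760.

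Scaffold Csa00517 was the only one on which 3 or more testable models were absent in the same accession. It carries 10 models, of which 5 were testable: Csa00517s010.1, Csa00517s050.1, Csa00517s060.1, Csa00517s080.1 and Csa00517s090.1, with typical levels of 16.0, 11, 9.14, 48.6 and 7.94 CPM. In CN 113760 the 3 libraries held 3 reads on the 5 models together, 2 of them on Csa00517s050.1 and 1 on Csa00517s080.1. Their summed level was 0.256 CPM, against a median of 95.1 CPM over accessions, and the next lowest accession, CAM 223, was at 24.9 CPM. Csa00517s010.1, Csa00517s060.1 and Csa00517s090.1 had no read there, with 187, 107 and 92.9 reads expected. All 5 models differed among accessions (edgeR quasi-likelihood, adjusted p from 3.35e-08 to 4.52e-04).

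Libraries of 4 other accessions disagreed on this scaffold. Of the 148 libraries, 8 were below 2% of the median library on the 5 models, and the other 140 were at 35.8 CPM or more, so no library lay between. The 8 were the 3 of CN 113760 and 5 in 4 further accessions. CN 113757 had 0 reads in Cs083, a library of 6283772 counts, but 537 in Cs065 and 315 in Cs086. CAM 223 had 6 reads in S001C53 and 224 and 133 in Cs120 and Cs132, where the summed levels of 44.6 and 42.3 CPM were below most libraries.

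The remaining split accessions include mismatched libraries. CN 114262 had 5 reads in Cs130, 249 in S001C54 (35.8 CPM) and 861 in the mismatched S001C48 (96.6 CPM). CAM 260 had 0 reads in Cs143 and in the mismatched Cs133, and 761 reads in the mismatched S001C51. In CN 113757 and CAM 223 none of the libraries was mismatched: Cs083 differed from its own accession at 11 to 11.8% of the chromosome models and S001C53 at 6.25 to 8.47%. The 5 models therefore went on and off together between libraries that carry 1 label. Among libraries of other accessions, the low library Cs133 was nearest to S001C3D of CN 113760 (12.7%), S001C53 to S001C3D (10.7%) and Cs130 to Cs133 (14.5%). Cs083 was nearest to S001C49 of CAM 276 (12.6%), which was not low. Cs120, Cs132 and S001C54, which had reads, were also nearest to low libraries: S001C52 (16.3%), Cs085 (13.1%) and Cs133 (13.2%). What this pattern reflects was not tested.

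**Figure D5:**
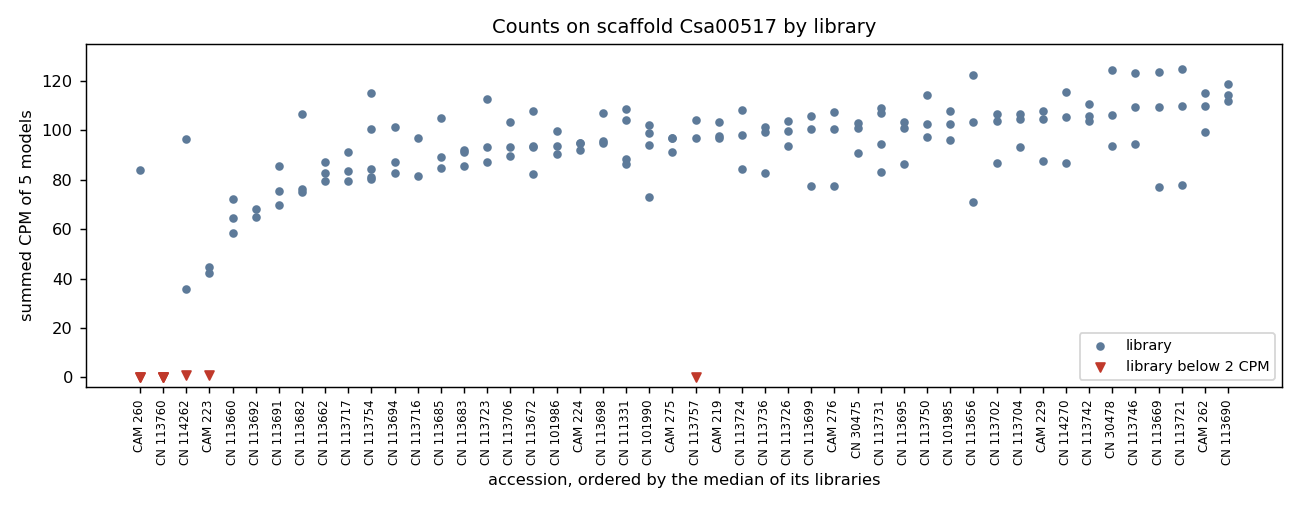
Each point is 1 of 148 libraries and gives the summed CPM of the 5 testable models of scaffold Csa00517, with accessions ordered by the median of their libraries; triangles mark libraries below 2 CPM. The 8 triangles belong to CN 113760, CAM 260, CN 114262, CAM 223 and CN 113757, and the other libraries lie at 35.8 CPM or higher.

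Disagreement between libraries of 1 accession was counted over all testable models, as a library with 0 reads where at least 20 were expected beside another at 50% or more of the expected level. It occurred for 17 of 295 scaffold models (5.76%), where it occurred for 1.7% of all models, and in 18 accessions. Among the 30513 testable chromosome models it occurred for 506 (1.66%), in 46 accessions. Mismatched libraries were included, and the count was not repeated without them.

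TAU, an index that runs from 0 at equal levels everywhere to 1 where all expression falls in 1 accession, exceeded 0.9 in 7 of 545 scaffold models with a mean normalized count above 10 in some accession (1.28%), where it did in 1.48% of all such models. The 3 highest, Csa00535s150.1 (TAU 0.987), Csa00555s050.1 (0.964) and Csa00765s020.1 (0.937), were all highest in CAM 219 and there in the mismatched library Cs082 alone, at 84.9, 92.0 and 62.1 normalized counts, while the next library held 0.731, 2.93 and 0.895. Csa18385s010.1 (0.935, highest in CN 101990) and Csa03111s010.1 (0.935, highest in CN 111331) followed. Csa03153s010.1 also passed (0.915, highest in CN 113660). Without mismatched libraries, 6 models exceeded 0.9. With the shallow libraries included, the order turned: 57 of 511 scaffold models exceeded 0.9 (11.2%), where 6.43% of all models did.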

How the data were processed

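The authors trimmed reads with Trimmomatic 0.32, aligned them with STAR 2.7.10a and counted them with featureCounts 2.0.1. The deposited values are raw counts per gene model and library, neither normalized nor pooled; strand setting, handling of reads with several alignments and genome build are not given in the sources used here. A scaffold model can therefore share reads with a near-identical chromosome copy, so levels of such models are uncertain. Libraries took their accession from the labels, and 1 library without FT (Licalla) was left out of comparisons.

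Counts were summed per accession for the late and FT fits, and CPM is per 1000000 counts. Tests used edgeR 4.0.16 (quasi-likelihood, TMM, low-count filter, Benjamini-Hochberg, threshold 0.05), with DESeq2 1.42.0 as an alternative, and permutation tests used scipy 1.17.1. On simulated data, 200 of 200 models changed by 2 log2 units were recovered for late against early (94495 models) with 11 false calls. The changed models were drawn from well-counted ones, with a fixed spread and the same shift in every late accession. Recovery at low levels, or of models that differ between late accessions, was not tested. Members and lists were chosen with earlier results of these data known. Libraries under 200000 counts were left out. The most similar replicate pair, S001C32 and S001C4A of CN 113754, had a chi-square of 1.52 per gene. No pair was counted as 1 sample. The value also falls with depth, and S001C32 held 504269 counts. It therefore cannot show whether libraries share a plant or extraction. A count of 0 was taken to allow up to 3 reads, which covers counting error only.

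Models were named by rule: the 10 of highest median CPM; the 5 largest called rises and 5 largest called falls in late accessions; the 10 of largest SD over accessions among called models with a mean of at least 5 CPM, and the 5 of smallest SD; the 10 absent in most accessions; the scaffold members of the tan module; models of scaffolds with at least 3 absent in 1 accession; and the 5 of highest TAU.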

Additional observations from a re-analysis of the deposited data

Results flagged for a closer look

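In the 4 late accessions, CN 113662 stood apart from the other 3 in 3 models, among 22 groups examined. The measure was the gap to its nearest neighbour relative to the range. The models had been named by their values in these data or as tan members, so this count is no test against chance. Where the other 3 values are 0, the gap equals the range. Csa00717s010.1 was at 23.4 CPM in CN 113662 and 0 in the others. Csa00880s010.1 was at 0.290 CPM there and 0 in the others. Csa05827s010.1 was at 3.78 CPM there and between 0.805 and 0.932 CPM in the others. Library Cs040 of CN 113662 is mismatched on chromosome models. Without it, CN 113662 was at 21.3 CPM for Csa00717s010.1, 0.396 CPM for Csa00880s010.1 and 3.66 CPM for Csa05827s010.1. All 4 reads of Csa00880s010.1 in CN 113662 were in Cs147.

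The single library of Licalla, which entered no comparison, had 8286624 counts, of which 1.18% were on scaffold models, within the range of the 48 accessions.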

How the results depend on the processing

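Libraries could not be paired by replicate number, because the labels give none. Only the comparison of Cs with S001C libraries was paired, within accessions. The share difference between late and early accessions ranged from -0.0998 to -0.0608 percentage points when 1 late accession was left out and was -0.0147 without the 10 top models; without these models the F ratio among accessions was 1.16 and the Cs minus S001C difference turned to -0.0282. Within series, added after the data were seen, r of share with FT was -0.33, -0.10 and -0.47. Without 1 late accession, called scaffold models numbered 40 to 65 (14 to 26 higher, 26 to 43 lower), with 45 calls without CN 113692 and 29 lower without CN 113691. These were 5.02% to 8.18% of the scaffold models tested, where 7.34% to 12.2% of all models were called. With Cs libraries only there were 28 (11 higher, 17 lower), or 4.59%, where 7.03% of all models were called. Without replicate 1, 2 or 3, by order of accession number, 216 to 297 models differed among accessions. The scaffold shares were 40.1%, 29.3% and 32.6%, where 46.1%, 32.8% and 37.8% of all models differed. With no filter, 11 models followed FT (0.553%, where 0.908% of all models did). Models expressed in all 48 accessions numbered 1 with all libraries, 349 at 1 CPM and 384 after thinning. These were 0.0238%, 8.29% and 9.12% of scaffold models, where 0.0233%, 39.8% and 41.8% of chromosome models were. Absent models numbered 19 and 4 with at least 10 and 50 expected reads (4.61% and 2.82%, where 2.03% and 0.614% of all models were). TAU above 0.9 was found in 57 models with all libraries (11.2%, where 6.43% of all models were) and 1 on log2 values (0.183%, where 0.368% were). Csa00717s010.1 was called lower without CN 113662 (adjusted p = 1.5e-07), and Csa00974s010.1 without CN 113662 (0.025), without CN 113692 (0.018), with DESeq2 (0.037) and with the edgeR fit that estimates dispersion inside the fit, added after the data were seen (0.038). The causes were not tested. Of 263 values of named models under alternatives, 242 kept direction and side of the threshold, 16 lost the call and 5 gained it. The DESeq2 likelihood ratio test among accessions was not run. A model below about 4.03 CPM could not be judged absent at this depth.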

Other observations

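In Licalla, 1046 of the 4209 scaffold models had reads. Csa00532s290.1 was at 2932 CPM and Csa00590s090.1 at 2102 CPM, both inside the range of the 48 accessions. The 5 testable models of Csa00517 all had reads, from 41 on Csa00517s060.1 to 391 on Csa00517s080.1. Csa03523s010.1 and Csa00427s010.1, absent in 10 and 9 accessions, had 62 and 41 reads. Csa03153s010.1 was at 1.09 CPM, inside the early range, and Csa00717s010.1 at 10.6 CPM.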
